A study of Mus musculus with 6 samples.

Results

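The interstitial collagens I, III, V and VI and Cthrc1, the collagen triple helix repeat gene, were followed in endothelial cells (ECs) of mouse lungs that carried metastases of human breast cancer cells. Every probe set whose platform annotation gave a single gene symbol equal to Col1a1, Col1a2, Col3a1, Col5a1, Col5a2, Col5a3, Col6a1, Col6a2, Col6a3 or Cthrc1 was taken, which gave 10 of 18194 genes and 19 of 45101 probe sets. All 10 genes had at least 1 probe set above background, a level set at 7.48 on the log2 scale from olfactory receptor probe sets, and 17 of the 19 probe sets lay above it. The genes were chosen by results of this same contrast, so their differences are given as a description with no test.

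The arrays came from 3 shTNC and 3 shControl samples. In the shTNC group, immunodeficient NSG mice aged 6 to 8 weeks had received intravenous MDA-MB-231-LM2 cells, a lung-tropic subline of MDA-MB-231 human breast cancer cells, that expressed an shRNA against TNC, the gene for the matrix glycoprotein tenascin C. The shControl group had the same host, age and cancer line with a control shRNA, and all lungs were taken on day 20, which the sample labels round to 3 weeks. ECs were sorted from whole lungs, metastatic and other tissue together, as CD31+ cells after cells with CD45, CD11b, EpCAM, CD140a, CD140b or the GFP of the cancer cells had been gated out. Labeling started from 2 ng of total RNA. The knockdown acts on human TNC in cancer cells that sorting took away, and was not checked on these mouse arrays. The study reports less lung colonization by cancer cells with TNC knockdown. The sample labels give no metastatic load, so load and knockdown cannot be told apart here.

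Collagens I, III and V assemble into the fibrils that give tissue its tensile strength, and collagen VI forms a beaded microfilament network near cell surfaces. Fibroblasts and mural cells are their main makers in the lung, whereas the basement membrane beneath the endothelium is built mainly from collagen IV and laminins. Cthrc1 encodes a secreted glycoprotein with a short collagen-like stretch that is best known from injured arteries and from matrix-producing fibroblasts of fibrotic lung. In RNA of a bulk sorted population, fewer cells of a type and less RNA per cell cannot be told apart.

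Cthrc1 had the largest difference of the 10 genes and was about doubled in ECs from shTNC lungs, whereas the 9 collagen genes lay within 0.31 of zero on the log2 scale. Over the 9 collagen genes, each taken at its brightest probe set, the median difference (shTNC minus shControl) was -0.10, with a range of -0.31 to 0.29 and standard errors (SE) of 0.10 to 0.24. Over all 10 genes the median was -0.065, beside -0.03 over all 18194 genes. Of the 19 probe sets, 12 had lower and 7 had higher means in shTNC, and their median of -0.032 stood beside -0.011 over all 45101 probe sets.

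None of the 19 probe sets reached a limma adjusted p of 0.05, and the share of all probe sets that passed was 0%. At an unadjusted p of 0.05, 1 member probe set was lower, beside 6.30% of all probe sets, and 2 were higher, beside 6.66%. The shTNC and shControl arrays did not overlap for 1 probe set that was lower in shTNC, beside 10.5% of all probe sets, and for 1 that was higher, beside 8.92%. The other 17 overlapped. These counts come from the contrast that chose the genes and nothing was read from them.

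**Figure D1:**
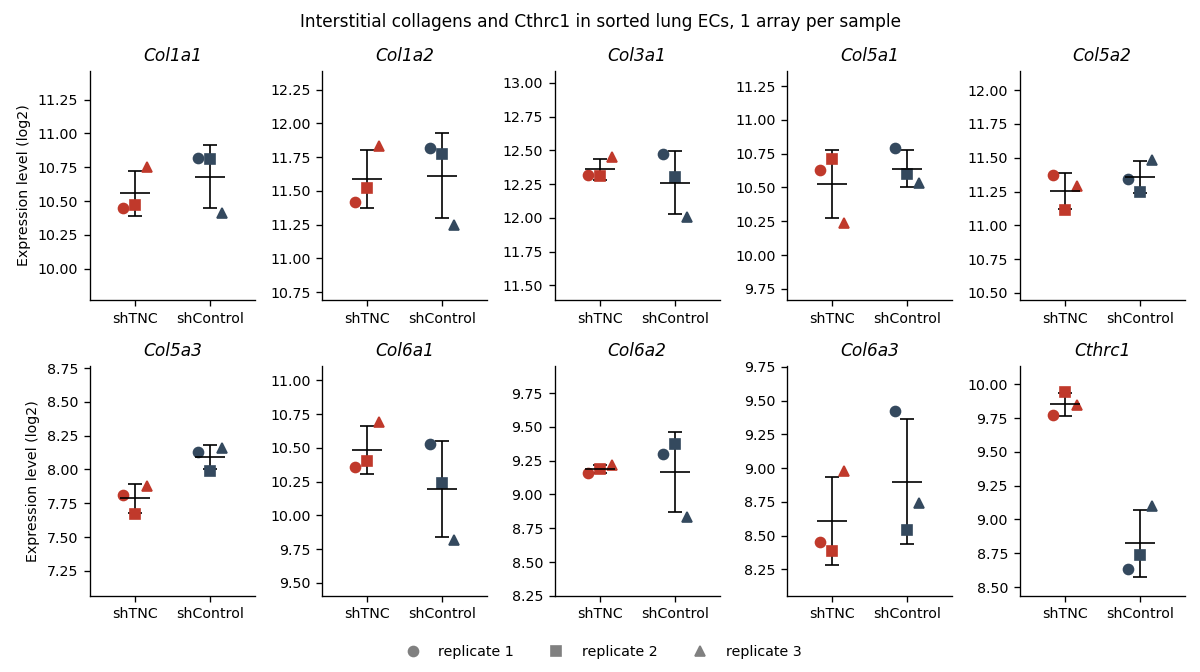
Expression level (log2, y axis) of the brightest probe set of each gene in shTNC and shControl ECs, with 1 point per array, the group mean as a line and the SD as an error bar (n = 3 per group). The 3 shTNC arrays sit above the 3 shControl arrays for Cthrc1 and below them for Col5a3, and the groups overlap for the other 8 genes. All panels span the same number of log2 units, each around its own level.

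The promoter windows of Col1a2, Col3a1 and Col6a1 are shown here as examples. Each of these 3 collagen genes was lowest in shControl replicate 3 at its brightest probe set. Each run holds the 250 bases before the annotated start, 5′ to 3′ on the gene's strand, from RefSeq on GRCm38.p6. The windows are chr6:4505368-4505617 for Col1a2 and chr1:45311288-45311537 for Col3a1, both on the plus strand, and chr10:76726045-76726294 for Col6a1 on the minus strand. Gene coordinates given with the probe sets are from the same RefSeq annotation and build. Capitals mark matches, on either strand, to 5 short motifs.
Col1a2: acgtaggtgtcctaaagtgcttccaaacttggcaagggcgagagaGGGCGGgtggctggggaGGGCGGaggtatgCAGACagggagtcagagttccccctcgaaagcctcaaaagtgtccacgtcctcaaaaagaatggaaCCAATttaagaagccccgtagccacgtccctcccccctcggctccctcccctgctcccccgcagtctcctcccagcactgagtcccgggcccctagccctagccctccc
Col3a1: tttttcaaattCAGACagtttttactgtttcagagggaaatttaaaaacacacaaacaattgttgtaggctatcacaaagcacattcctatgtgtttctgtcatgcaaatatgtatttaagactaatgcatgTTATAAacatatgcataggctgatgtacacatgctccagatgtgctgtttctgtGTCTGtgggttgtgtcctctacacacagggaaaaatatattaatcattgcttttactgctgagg
Col6a1: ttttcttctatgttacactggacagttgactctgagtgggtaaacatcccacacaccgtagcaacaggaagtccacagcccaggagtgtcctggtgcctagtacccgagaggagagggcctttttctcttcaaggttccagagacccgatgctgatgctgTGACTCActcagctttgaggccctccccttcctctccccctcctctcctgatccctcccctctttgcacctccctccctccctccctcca

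The motifs were TATAA (the TATA box), CCAAT (the CCAAT box), GGGCGG (the GC box bound by Sp1-type factors), CAGAC (a short SMAD-binding element) and TGANTCA (the AP-1 site). Among all 32851 windows of this length, TATAA stood in 22.8%, CCAAT in 33.8%, GGGCGG in 32.7%, CAGAC in 42.2% and TGANTCA in 6.75%. The Col1a2 window held CCAAT 109 bases before the start, 2 GC boxes and 1 SMAD element. The Col3a1 window held TATAA 117 bases before the start, where the match and its reverse complement overlap, with SMAD elements at 239 and, on the other strand, at 64 bases. The Col6a1 window held the AP-1 sequence TGACTCA 90 bases before the start and no other match. No motif was common to all 3 windows of Col1a2, Col3a1 and Col6a1, and a match is a run of letters, not a measured binding site.

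Cthrc1 (1452968_at, chr15:39076932-39087121) had levels of 9.77, 9.94 and 9.85 in the shTNC arrays, against 8.63, 8.74 and 9.10 in the shControl arrays. Every shTNC array was above every shControl array, with 0.66 between the lowest shTNC and the highest shControl value, and shControl replicate 3 was the nearest control. The means were 9.85 ± 0.086 in shTNC and 8.82 ± 0.25 in shControl (SD, n = 3 each), a difference of 1.03 ± 0.13 (SE; 95% interval 0.73 to 1.33) or 2.04-fold. By size, this was the 9th of the 18194 genes. With 1 array left out the difference ran from 0.93 to 1.17, and array weights gave 1.07. Robust eBayes with a trend, the replicate block, a fit without probe sets near background and the mean of probe sets cannot change it here. Cthrc1 passed an adjusted p of 0.05 in none of the 13 alternative settings. A single probe set stands for this gene, so no second set of probes bears on the value.

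The collagen I genes encode the chains of the most abundant fibril of connective tissue. Col1a1 (1423669_at, chr11:94936224-94953042), whose product contributes the majority chain of the heterotrimer, had levels of 10.45, 10.47 and 10.75 in shTNC, against 10.82, 10.81 and 10.41 in shControl. Col1a2 (1450857_a_at, chr6:4505618-4541543), which encodes the partner chain, had 11.42, 11.52 and 11.83 in shTNC, against 11.82, 11.77 and 11.25 in shControl. In both genes shControl replicate 3 was the lowest of the 6 arrays while the other shControl arrays stood near or above the highest shTNC array. Col1a1 differed by -0.13 ± 0.14 (95% interval -0.45 to 0.19) and Col1a2 by -0.026 ± 0.17 (-0.42 to 0.37).

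Of the further probe sets of collagen I, those above background were also lowest in shControl replicate 3. The other Col1a1 probe set (1455494_at) differed by -0.084 ± 0.18 and the other Col1a2 probe set above background (1423110_at) by -0.016 ± 0.16. A further Col1a2 probe set (1446326_at) lay near background, at 6.60, 6.97 and 6.91 in shTNC and 6.49, 6.43 and 6.62 in shControl. Its difference of 0.32 ± 0.12 was opposite in sign to that of the 2 brighter probe sets, its groups overlapped, and its lowest array was shControl replicate 2.

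Col3a1 (1427883_a_at, chr1:45311538-45349706) encodes the chain of collagen III, which forms fine fibrils with collagen I in lung and vessel walls. Its levels were 12.32, 12.31 and 12.45 in shTNC, against 12.47, 12.30 and 12.01 in shControl. The shTNC arrays lay close together inside the wider shControl range, whose lowest value was again replicate 3. The difference was 0.10 ± 0.13 (95% interval -0.19 to 0.39), and the other probe set (1427884_at) also gave 0.10 ± 0.17. Without shControl replicate 3 the difference of the brighter probe set was -0.026.

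Collagen V is a minor fibril component that starts fibril assembly and limits fibril width. Col5a1 (1416740_at, chr2:27886381-28039510), which encodes a chain present in its common form, had 10.63, 10.71 and 10.24 in shTNC, against 10.79, 10.60 and 10.53 in shControl. Col5a2 (1422437_at, chr1:45374331-45503282), its partner chain, had 11.37, 11.11 and 11.29 in shTNC, against 11.34, 11.25 and 11.48 in shControl. The groups overlapped for both genes, and the lowest array was shTNC replicate 3 for Col5a1 and shTNC replicate 2 for Col5a2.

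Col5a1 differed by -0.12 ± 0.14 (95% interval -0.43 to 0.20), with -0.18 ± 0.12 and -0.10 ± 0.10 at its further probe sets (1434479_at and 1416741_at). Without shTNC replicate 3 the brightest Col5a1 probe set gave 0.024. Col5a2 differed by -0.10 ± 0.11 (-0.35 to 0.14) and by -0.032 ± 0.11 at its other probe set (1450625_at).

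Col5a3 (1419703_at, chr9:20770050-20815117) encodes a less common chain of collagen V. It had 7.81, 7.67 and 7.88 in shTNC, against 8.13, 7.99 and 8.16 in shControl, and was the only collagen gene without overlap at its brightest probe set. Every shTNC array was below every shControl array, with 0.11 between the groups, and all 6 values were within 1 log2 unit of background. The difference was -0.31 ± 0.10, or 0.809-fold. The other Col5a3 probe set (1425984_at) was near background and differed by 0.0039 ± 0.10, and the mean of both probe sets differed by -0.15.

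The collagen VI chains were measured by 4 probe sets. Col6a1 (1448590_at, chr10:76708792-76726044) had 10.36, 10.40 and 10.69 in shTNC, against 10.53, 10.24 and 9.82 in shControl. Col6a2 (1426947_x_at, chr10:76595756-76623630) had 9.16, 9.19 and 9.22 in shTNC, against 9.30, 9.37 and 8.83 in shControl. Both genes encode short chains of the collagen VI monomer, lie 85161 bases apart, and were lowest in shControl replicate 3.

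Col6a1 had the highest difference of the collagen genes, 0.29 ± 0.18 (95% interval -0.13 to 0.70), and Col6a2 differed by 0.023 ± 0.14 (-0.30 to 0.35), with -0.14 ± 0.14 at its other probe set (1452250_a_at). Col6a3 (1424131_at, chr1:90766860-90844001), which encodes the long chain of the same monomer, had 8.45, 8.39 and 8.98 in shTNC, against 9.42, 8.54 and 8.74 in shControl. Its highest value was shControl replicate 1, its groups overlapped, and its difference was -0.29 ± 0.24 (-0.84 to 0.26). The 3 chains of 1 molecule thus had differences of both signs, each with an interval that includes 0.

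**Figure D2:**
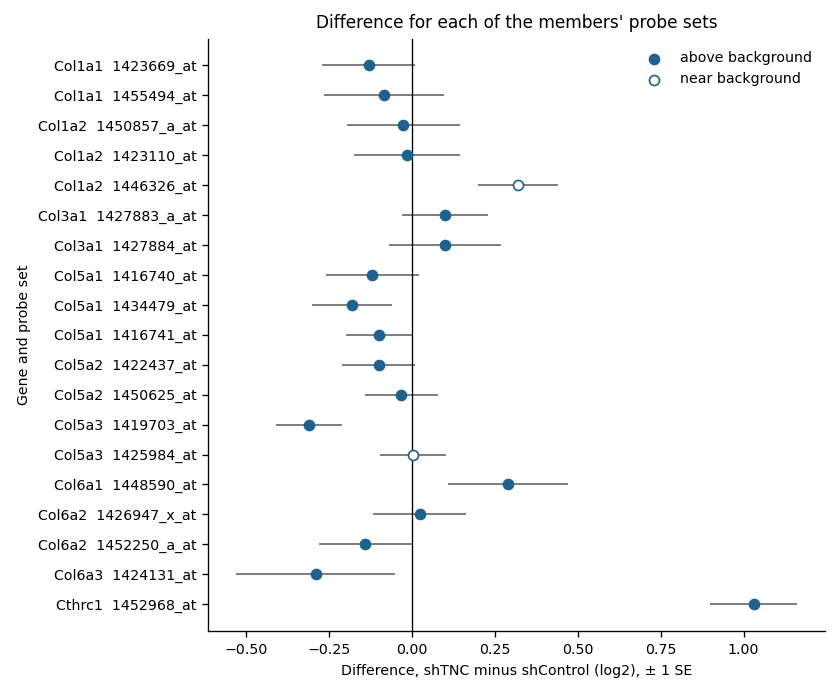
Difference between groups (shTNC minus shControl, log2, x axis) for each of the 19 probe sets (y axis), with bars of 1 SE (n = 3 arrays per group). Filled points lie above background and open points near it. Cthrc1 stands at 1.03, and the collagen probe sets lie between -0.31 and 0.32.

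Collagens I, III and VI varied more between arrays of a group than between the group means. As mean deviation from the 6-array mean, collagen I stood at -0.18, -0.12 and 0.18 in the shTNC arrays, against 0.21, 0.18 and -0.28 in the shControl arrays. Collagen VI stood at -0.10, -0.10 and 0.21 in shTNC, against 0.33, -0.042 and -0.29 in shControl. Both types, and collagen III with -0.30, were lowest in shControl replicate 3 and had high values in shTNC replicate 3 and shControl replicate 1.

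Collagen V followed another order, with -0.008, -0.12 and -0.14 in shTNC, against 0.14, 0.0048 and 0.12 in shControl. Cthrc1 stood at 0.43, 0.60 and 0.52 in shTNC, against -0.71, -0.60 and -0.24 in shControl, so that its array-to-array order was neither that of collagens I, III and VI nor that of collagen V. Across the 10 genes, shControl replicate 3 was the lowest array for 5 and the highest for 2, and shControl replicate 1 was the highest for 4. The 6 arrays share 1 normalization and these orders are descriptions with no test.

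**Figure D3:**
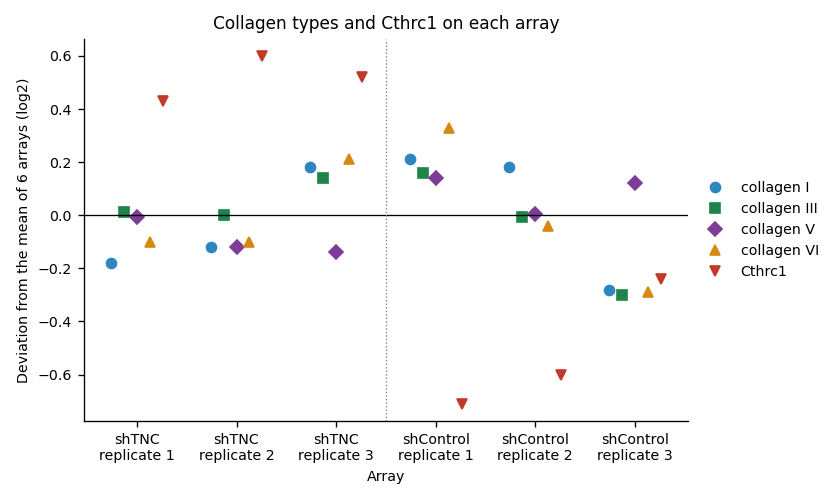
Mean deviation of each collagen type and of Cthrc1 from its own 6-array mean (log2, y axis) on each of the 3 shTNC and 3 shControl arrays (x axis). Collagens I, III and VI are lowest in shControl replicate 3, between -0.30 and -0.28, while Cthrc1 is above 0 on the shTNC arrays and below 0 on the shControl arrays.

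Leaving out single arrays changed which collagen genes had separate groups, beyond Col5a3 and Cthrc1 with separate groups on all 6 arrays. Without shTNC replicate 3, Col6a3 was lower without overlap. Without shControl replicate 1, Col3a1 and Col6a1 were higher without overlap, and without shControl replicate 3, Col1a1 and Col6a2 were lower without overlap. Groups separate more easily with fewer arrays, and the share over all probe sets was not counted here, so nothing was read from these separations. Over the 13 alternative settings the sign of Col1a2 changed in 5 (range -0.21 to 0.092), that of Col6a2 in 2 (-0.15 to 0.12), and that of Col3a1 and Col5a1 in 1 each.

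The genes with the most similar 6-array profile, by Pearson correlation with the mean standardized level of the 10 genes among 13434 candidate genes above background, were Eva1a (r = 0.995), Lrrc40 (0.991), Herc1 (0.989), Surf2 (0.986) and Fam91a1 (0.98). Each of them had overlapping groups, with differences between -0.067 for Herc1 and 0.0014 for Surf2. For Cthrc1 alone, a list added after its values were seen, the most similar were Radil (0.994), Prodh (0.992), Dennd1b (0.989), Ripply3 (0.988) and Rpl38 (0.987). Of these, Ripply3 differed by 0.66 ± 0.10 and Rpl38 by 0.17 ± 0.081. With 6 arrays and this many candidates such correlations describe the arrays only.

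Collagens are made through a long line of enzymes and chaperones that hydroxylate, fold, trim and cross-link the chains. Of 36 such genes, 32 were matched, and 19 had lower and 13 higher means in shTNC, with a median of -0.062. None passed an adjusted p of 0.05, and at an unadjusted p of 0.05, 2 were lower and 3 higher. Over all genes these shares were 7.12% lower and 4.54% higher.

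Tll1, a tolloid-like protease that trims procollagen ends, had 8.63, 8.42 and 8.36 in shTNC, against 7.99, 7.89 and 7.82 in shControl. Pcolce, which enhances that same trimming, had 9.34, 9.12 and 9.40 in shTNC, against 8.65, 8.78 and 8.78 in shControl. Neither gene had overlapping groups, and the differences were 0.57 ± 0.10 for Tll1 and 0.55 ± 0.10 for Pcolce, each with a limma adjusted p of 0.18. A second Pcolce probe set differed by 0.24 ± 0.091.

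Fkbp14, a prolyl isomerase of the endoplasmic reticulum that acts on collagens, differed by -0.43 ± 0.11, though its other probe set gave 0.0062 ± 0.17. Crtap, a partner of the prolyl 3-hydroxylase complex, differed by -0.22 ± 0.082.

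Of 17 further fibrillar, fibril-associated and collagen VI chain genes, 16 were matched and 7 of them lay near background. In all, 13 had lower and 3 higher means, with a median of -0.073. An unadjusted p of 0.05 was reached by 2 with lower and 1 with higher values, beside 7.12% and 4.54% of all genes. Those were Col9a1 (-0.35 ± 0.10), Col9a2 (-0.22 ± 0.089) and Col19a1 (0.45 ± 0.10), all near background. The other probe sets, also near background, gave -0.073 ± 0.14 for Col9a1, and 0.21 ± 0.11 and -0.15 ± 0.14 for Col19a1. Col27a1, a fibrillar chain just above background, differed by -0.17 ± 0.12, and its other probe set, near background, by 0.14 ± 0.10.

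Among 12 matched collagen receptors of 13, 5 had lower and 7 higher means, with a median of 0.03. Of the 12, 1 was higher at an unadjusted p of 0.05, beside 4.54% of all genes. That receptor was Ddr2, a kinase for fibrillar collagen, with 9.87, 9.80 and 9.90 in shTNC, against 9.58, 9.21 and 9.53 in shControl. Its groups did not overlap and differed by 0.42 ± 0.12, beside 0.12 ± 0.09 at its other probe set. Itgb1, the beta subunit of the collagen-binding integrins, differed by -0.13 ± 0.082, and by -0.17 ± 0.081 and -0.089 ± 0.13 at its further probe sets above background. Cspg4 differed by 0.21 ± 0.13 at its brightest probe set and by -0.23 ± 0.13 at the other. Lair1, near background, differed by 0.16 ± 0.12.

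The labelled cell type was checked against 16 pan-endothelial markers, all above background, whose mean level was 13.47 to 13.49 in shTNC and 13.45 to 13.51 in shControl. Of these markers, 7 had lower and 9 higher means (median 0.0086). None reached an unadjusted p of 0.05, beside 7.12% lower and 4.54% higher among all genes. Emcn (-0.16 ± 0.093) was lower and Flt1 (0.089 ± 0.078) higher without overlap, and Kdr differed by 0.079 ± 0.086. Further Flt1 probe sets, all above background, differed by 0.34 ± 0.10, 0.13 ± 0.082 and 0.14 ± 0.092. Pecam1, which encodes the CD31 used for sorting, averaged 13.95 in shTNC and 13.98 in shControl, and Cdh5 13.86 and 13.91. Of the genes gated against, Itgam (CD11b) was near background and Epcam averaged 7.64 in shTNC and 7.70 in shControl. Ptprc (CD45) averaged 8.38 in shTNC and 8.05 in shControl. Pdgfra (CD140a) was above background on every array, with means of 9.26 in shTNC and 9.27 in shControl, as was Pdgfrb (CD140b), with 8.88 in each group. A second probe set above background differed by -0.47 ± 0.23 for Pdgfra and by 0.78 ± 0.17 for Pdgfrb.

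Markers of cells that make interstitial collagens were present beside the collagen signal. Of 22 fibroblast markers, 21 lay above background, 15 had higher and 7 lower means in shTNC (median 0.24), and their mean level was 9.43, 9.61 and 9.94 in shTNC, against 9.58, 9.57 and 9.20 in shControl. This list, like the means of collagens I, III and VI, was lowest in shControl replicate 3, and its groups overlapped. That array was also lowest for Pdgfra (8.74), Pdgfrb (8.53), the pericyte and smooth muscle list (8.56) and, narrowly, the collagen processing list (10.13). Other lists differed, with the mesothelial markers lowest in shTNC replicate 2 (7.46) and the pan-endothelial markers in shControl replicate 1 (13.45). Col6a3 by itself was lowest in shTNC replicate 2 (8.39). The actin-binding protein gene Gsn, whose groups did not overlap, differed by 0.64 ± 0.20 and the microfibril-associated gene Mfap4 by 0.74 ± 0.32. Those were the 2 of 22 fibroblast markers at an unadjusted p of 0.05, both higher, beside 4.54% of all genes. Inmt differed by 0.57 ± 0.27. The further Gsn probe sets above background differed by 0.89 ± 0.29, 0.55 ± 0.23, 0.37 ± 0.21 and -0.37 ± 0.13.

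Of 17 matched genes of activated fibroblasts, a state in which, as in injured arteries, Cthrc1 is known, 10 had lower and 7 higher means (median -0.018). An unadjusted p of 0.05 was reached by 3 lower and 2 higher ones, beside 7.12% and 4.54% of all genes. The mean level of the list was 8.78, 8.77 and 8.98 in shTNC, against 9.00, 8.87 and 8.77 in shControl, and the groups overlapped. Adam12, a membrane protease of such cells, had 10.78, 10.71 and 10.88 in shTNC, against 11.56, 11.52 and 11.32 in shControl. Its difference of -0.68 ± 0.10 was opposite in sign to that of Cthrc1, as was -0.46 ± 0.15 for Tnfrsf12a, whereas Sfrp1 differed by 0.34 ± 0.10. Fap, Grem1, Comp and Aspn lay near background.

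Of 17 pericyte and smooth muscle markers, 10 had higher and 7 lower means (median 0.10). An unadjusted p of 0.05 was reached by 5 higher and 0 lower ones, beside 4.54% and 7.12% of all genes. The mean level of the list was 8.75, 8.69 and 8.89 in shTNC, against 8.68, 8.65 and 8.56 in shControl, without overlap. Myh11, the smooth muscle myosin heavy chain, differed by 0.50 ± 0.10, Cox4i2 by 0.39 ± 0.10 and Trpc6, near background, by 0.50 ± 0.15. The other Myh11 probe set, near background, differed by -0.063 ± 0.17. Without shTNC replicate 3 the median of the list was -0.0032.

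Of 10 mesothelial markers, 5 lay near background, and 8 had higher and 2 lower means (median 0.30). Their mean level was 8.51, 7.46 and 8.04 in shTNC, against 7.52, 7.60 and 7.68 in shControl. The high values came from shTNC replicates 1 and 3, and shTNC replicate 2 was the lowest array. Msln differed by 0.83 ± 0.38, Gpm6a by 0.76 ± 0.24 and Upk3b by 0.73 ± 0.33. In shTNC replicate 2, Msln was at 7.29, Upk3b at 8.49 and Gpm6a at 9.51, against shControl means of 7.47, 8.34 and 9.06. The part of fibroblast, mural and mesothelial RNA in the collagen and Cthrc1 values was not tested.

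**Figure D4:**
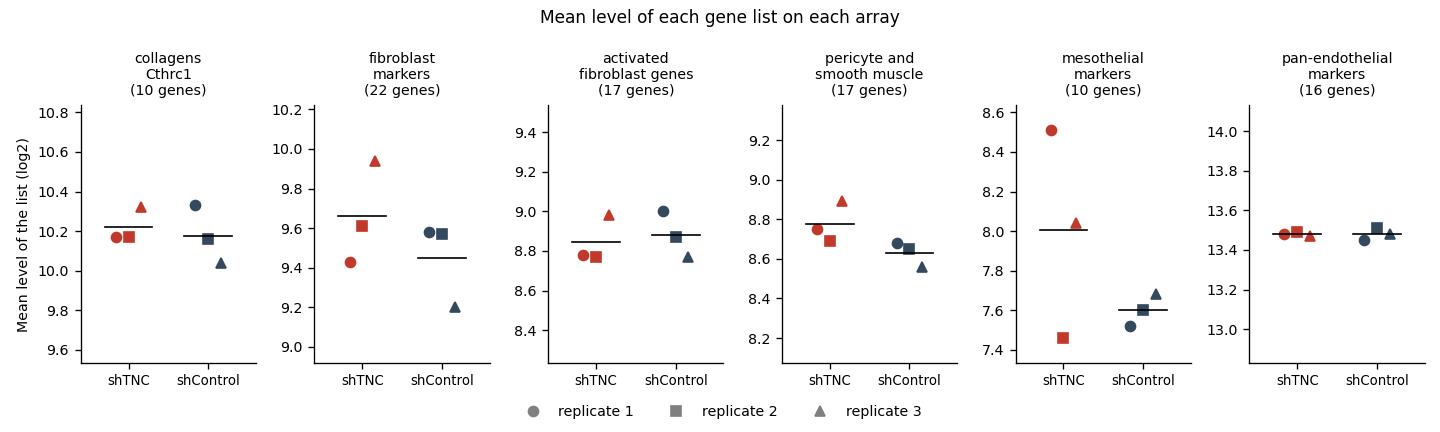
Mean expression level of each gene list (log2, y axis) in shTNC and shControl ECs, with 1 point per array and the group mean as a line (n = 3 per group). The 10 collagen and Cthrc1 genes and the 22 fibroblast markers are lowest in shControl replicate 3, and the 16 pan-endothelial markers stay between 13.45 and 13.51.

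The arrays differed in ways that touch these values. On the first principal component, with 36.6% of the variance, the shTNC arrays stood between 16.1 and 21.1 and the shControl arrays at -11.1, -43.6 and 0.251, so that shControl replicate 2 was farthest from the rest. That array had the widest spread around the probe set medians, an interquartile range of 0.247 against 0.142 to 0.165 for the other 5. On the second component shControl replicate 3 was the extreme, at 29.6 against -13.7 to 12 for the other 5. The array weights were lowest for shControl replicates 2 (0.523) and 3 (0.744), against 1.08 to 1.55 for the rest. The 3′ minus 5′ difference of the Actb control probe sets, a sign of RNA quality, was 0.197 to 0.274 in shTNC and 0.276 to 0.291 in shControl, without overlap but with the nearest arrays almost equal. That of Gapdh was 0.499 to 0.581 in shTNC and 0.558 to 0.567 in shControl, with overlap. Their part in the values above was not tested.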

How the data were processed

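Total RNA of sorted mouse lung ECs of 3 shTNC and 3 shControl samples, labelled as biological replicates, was hybridized to Affymetrix mouse genome arrays (1 per sample). The study's methods name robust multiarray average (RMA) normalization in Chipster, and the authors deposited log2 expression values per probe set. An array held 5773 to 6883 distinct values over its 45101 probe sets, so that most values are tied with others. It was not settled whether the deposited table is the direct output of RMA. Raw files and detection calls were not used here, and the number of arrays limits the precision.

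All 45101 probe sets entered a two-sided comparison by lmFit and eBayes of limma 3.58.1 (R 4.3.3, no covariate) with Benjamini-Hochberg adjustment and a threshold of 0.05. Differences are shTNC minus shControl with limma's SE and 95% interval. Symbols came from the platform annotation, where 34958 probe sets had 1 symbol. A gene was represented by its brightest single-symbol probe set. Near background meant a mean under 7.48, a level that 95% of the 44 olfactory receptor probe sets did not reach. Gene coordinates and promoter sequences came from RefSeq on GRCm38.p6, where 7 of the 10 genes had a promoter window.

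The genes and gene lists were chosen with earlier results of these data known, and the lists were compiled from general knowledge. The lists share some genes, such as Pdgfra with the sorted markers, Acta2 and Tagln between the activated fibroblast and mural lists, and Lox between the activated fibroblast and processing lists. Genes named were the 10 genes, up to 4 genes of each pathway list and up to 3 of each marker list by smallest p, the 5 genes with the most similar profile, and the genes of the sort. Of the steps, only the limma fit was tested on simulated data, with known shifts added to some probe sets. Alternatives were quantile normalization, centring on array medians, array weights, robust eBayes with an intensity trend, a fit without probe sets near background, the mean of a gene's probe sets, the replicate number as a block, and leaving out each array.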

Additional observations from a re-analysis of the deposited data

How the results depend on the processing

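Of 283 values recomputed under the alternatives, 277 moved by less than the spread between replicates (counts by less than 1.5 times) and 6 moved further. Some of the 277 could not move, since robust eBayes with a trend and the replicate block leave every difference unchanged. A fit without probe sets near background leaves that of a single gene unchanged. With 3 arrays per group, leaving out 1 array cannot move the difference of a single gene beyond the spread between its replicates. Those values were thus fixed in advance as unmoved, such as Col6a3, which went from -0.29 to -0.029 without shControl replicate 1. The count of probe sets past an adjusted p of 0.05 in limma was 0, and an unadjusted p of 0.05 was reached by 2842 lower and 3004 higher ones. The adjusted count was 9 with an intensity trend and robust eBayes, and 0 to 4 with 1 array left out (2 when this was shControl replicate 1 and 4 when it was shControl replicate 3). With the mean of a gene's probe sets 1 gene passed. No collagen gene and not Cthrc1 was among any of these, and the cause was not tested. With 1 array left out, the count of lower probe sets at an unadjusted p of 0.05 ran from 1883 (without shTNC replicate 3) to 3603 (without shControl replicate 3), and the median of the pericyte and smooth muscle markers from -0.0032 to 0.19. Col5a3 gave -0.15 with the mean of its probe sets, since the other one lay near background.

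The replicate numbers did not pair the arrays, as the deviations of same-numbered arrays correlated at -0.0852, 0.041 and 0.103. With the replicate block, 0 probe sets passed, and an unadjusted p of 0.05 was reached by 2731 lower and 3006 higher ones. In this balanced design the block cannot change a difference. The median of the 10 genes (-0.065) and the difference of Cthrc1 (1.03) were therefore fixed in advance.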
